A study of Homo sapiens with 6 samples.

Results

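LINC RNAs are long noncoding RNAs that carry only a systematic name, LINC and a number, given to transcripts that were placed between protein-coding genes when they were named. They were taken as the rows of the authors' deposited table with the gene type lncRNA and such a name, which gave 119 of 14538 rows. Another 1265 rows were long noncoding RNAs with other names and 12824 were protein-coding. The cells were HEK293T, an embryonic kidney line, of the INTS8-AID type, homozygous for a miniAID tag on INTS8. Auxin at 100 µM was present for 48 h before 3 of the libraries and absent for the other 3, so all 6 libraries carried the tag. The tag is a degron, a stretch that marks the protein for the proteasome once the plant hormone auxin is added, and 0 libraries were of auxin-treated cells without it. The labels do not give the number of clones, and 0 labels tell of separate cultures. The p-values then reflect only how these libraries spread, which may be technical.

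Long intergenic noncoding RNAs are made by RNA polymerase II, often spliced, and usually kept at low levels by early termination and by decay in the nucleus. INTS8 is a subunit of Integrator, which cleaves nascent RNA and ends transcription at small nuclear RNA genes, at enhancers, at promoters that fire in both directions and early in many coding genes. Many LINC genes start close to a coding gene and on the other strand, so that both are served by one promoter region, and such pairs are called divergent.

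All values rest on the authors' deposited table of the comparison, which holds no values per library, so the spread between libraries can be given only as a standard error derived from each p-value. The column headers name RNA-seq of INTS8 cells at 48 h, while the name of the sheet that holds them mentions INTS1 and INTS8 and TT-seq, a method for newly made RNA. The values were taken as the column headers say. Which group stands on top of the fold changes is not written in its header. Auxin was taken to be on top, by the usual convention, and if that is wrong, all directions below turn round. The mean level is the authors' normalised count over all libraries, and the levels of each group were derived from it and the fold change. INTS8 mRNA stood at 1.28-fold (adjusted p 1.33e-07) by the authors' deposited table, which does not bear on the loss of the protein. As a check of the cell type, 7 of 7 genes typical of HEK293-family cells were listed, at mean levels of 220 to 8932. Of 6 blood cell markers 1 was listed, at a mean level of 1, and of 4 fibroblast markers 0 were listed. The rule by which rows entered the table is not known, and only 8 of 15 abundant long noncoding RNAs were listed. That a marker is not listed therefore cannot show that it was not expressed.

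The windows around 5 transcription starts are printed, chosen among genes with an entry in the promoter table, to show these layouts: 2 LINC genes back to back on chromosome 10, a LINC gene back to back with BTG2, the strongly raised LINC00324 and the lowered LINC02593. Each is a RefSeq promoter of GRCh38.p14, 250 bases before to 50 bases after the start, 5′ to 3′ on the strand of the gene it is named for. Capitals at the right end mark the first 50 transcribed bases of that gene. Capitals at the left end mark bases that belong to the neighbouring LINC row on the other strand, 6 bases in each chromosome 10 window and 41 bases of LINC01136 in the BTG2 window. Their positions are chr10:132965284-132965583 on the plus strand for LINC01168, chr10:132965240-132965539 on the minus strand for LINC01166, chr1:203305269-203305568 on the plus strand for BTG2, chr17:8223994-8224293 on the minus strand for LINC00324 and chr1:919643-919942 on the minus strand for LINC02593.
LINC01168: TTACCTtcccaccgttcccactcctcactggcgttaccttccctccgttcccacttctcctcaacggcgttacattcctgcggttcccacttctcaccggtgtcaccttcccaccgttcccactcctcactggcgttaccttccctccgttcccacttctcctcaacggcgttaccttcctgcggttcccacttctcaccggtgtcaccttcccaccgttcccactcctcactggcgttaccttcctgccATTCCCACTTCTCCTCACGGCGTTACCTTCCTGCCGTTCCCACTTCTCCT
LINC01166: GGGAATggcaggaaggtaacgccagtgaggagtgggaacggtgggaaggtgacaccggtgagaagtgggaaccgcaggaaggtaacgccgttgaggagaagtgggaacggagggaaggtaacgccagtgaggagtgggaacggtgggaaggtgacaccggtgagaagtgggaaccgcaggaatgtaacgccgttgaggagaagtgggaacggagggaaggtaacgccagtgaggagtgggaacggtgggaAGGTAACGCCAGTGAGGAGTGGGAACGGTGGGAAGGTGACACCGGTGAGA
BTG2: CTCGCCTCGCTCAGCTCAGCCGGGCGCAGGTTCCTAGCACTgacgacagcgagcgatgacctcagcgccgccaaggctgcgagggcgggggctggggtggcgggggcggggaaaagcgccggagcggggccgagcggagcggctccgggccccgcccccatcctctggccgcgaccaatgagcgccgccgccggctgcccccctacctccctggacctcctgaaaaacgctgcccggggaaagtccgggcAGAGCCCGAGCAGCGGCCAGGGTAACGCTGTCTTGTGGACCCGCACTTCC
LINC00324: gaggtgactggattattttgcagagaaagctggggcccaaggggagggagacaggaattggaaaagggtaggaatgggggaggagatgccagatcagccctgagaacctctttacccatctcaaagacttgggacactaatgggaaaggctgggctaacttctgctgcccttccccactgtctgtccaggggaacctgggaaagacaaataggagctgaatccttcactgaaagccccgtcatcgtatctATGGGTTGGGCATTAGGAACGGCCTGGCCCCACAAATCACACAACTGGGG
LINC02593: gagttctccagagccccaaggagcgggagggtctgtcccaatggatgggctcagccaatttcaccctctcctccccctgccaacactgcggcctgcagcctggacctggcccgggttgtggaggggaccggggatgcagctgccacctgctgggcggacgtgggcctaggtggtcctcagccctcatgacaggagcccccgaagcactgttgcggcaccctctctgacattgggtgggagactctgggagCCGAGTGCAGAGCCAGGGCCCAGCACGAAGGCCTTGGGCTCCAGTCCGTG
The 2 windows on chromosome 10 share 256 bases read from opposite strands, and they are built of a short repeat. The commonest word of 12 bases occurs 6 times in the LINC01168 window and 5 times in the LINC01166 window, against 1 time in each of the other 3 windows. Where reads fall in such repeats, their place among the copies is uncertain.

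More LINC RNAs were higher than lower with auxin. With adjusted p-values of the authors' deposited table and a threshold of 0.05, 34 of the 119 rows were called higher and 8 lower, and 77 were not called. This is 35.3% called and 28.6% called as higher, where 56.7% of all rows in the table were called, 27.8% as higher and 28.9% as lower, and 60% of protein-coding rows. With a change of at least 2-fold, 21 of the 119 rows rose and 2 fell, beside 1145 and 198 of all 14538 rows (7.88% and 1.36%). These shares are not matched for level, and counts at matched level are given below. The 2 that fell so far, LINC00173 and LINC01159, had mean levels of only 11 and 19 by the authors' deposited table, and they are named here with their values known. LINC00173 had 5.72 with auxin and 16.3 without auxin, and LINC01159 had 12.3 with auxin and 25.7 without auxin. Log2 fold changes of the LINC rows had a median of 0.37, beside 0.37 for long noncoding RNAs with other names, -0.02 for protein-coding rows and 0.00 for all rows. Long noncoding RNAs with other names had 339 higher and 78 lower rows, 33% called, so the LINC rows were close to them in both counts and median.

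The derived levels of the 119 rows summed to 10876 with auxin and 7700 without auxin. A single RNA, LINC02575, made up much of that gap, and without it the sums were 7937 with auxin and 7105 without auxin. In such bulk libraries fewer cells with an RNA and less of it per cell cannot be told apart. Most LINC rows were scarce. Their median level per kilobase of transcript was 26.1 with auxin and 15.8 without auxin, where protein-coding rows had medians of 461 and 447.

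**Figure D1:**
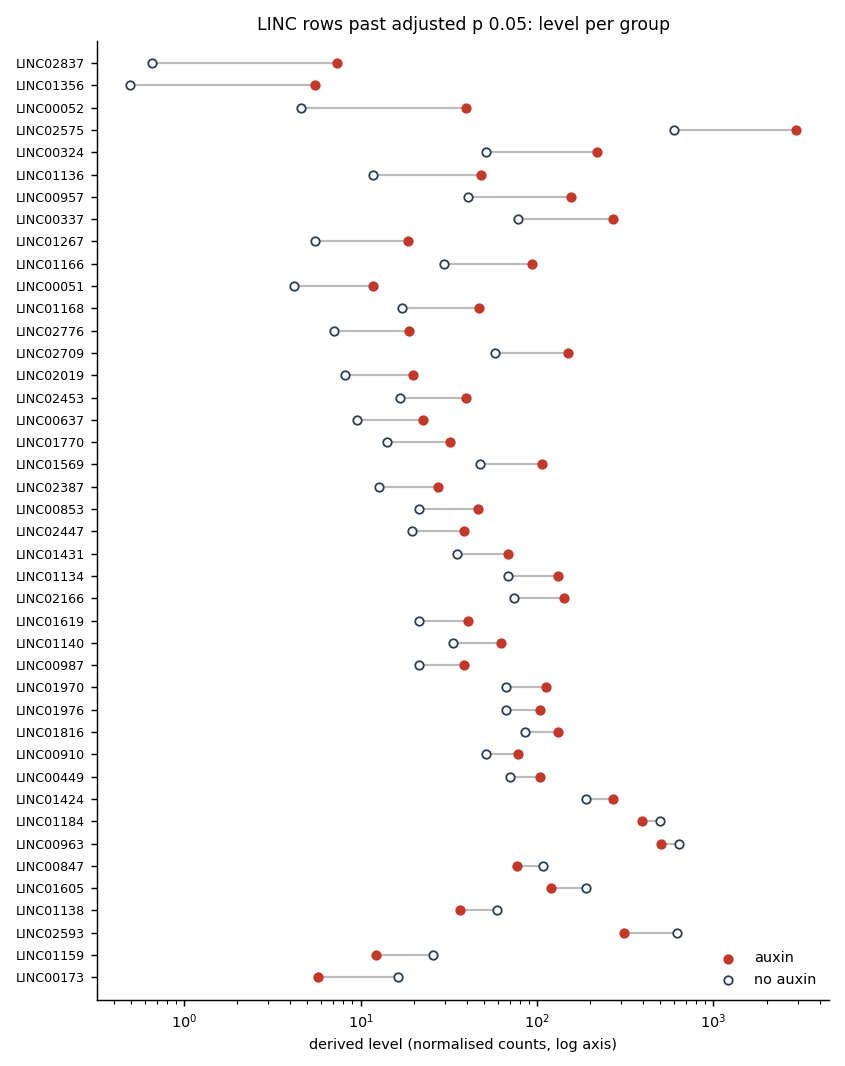
Derived level of each of the 42 LINC rows past an adjusted p of 0.05, in normalised counts on a log axis, with auxin (filled) and without auxin (open), ordered by log2 fold change. LINC02575 lies far to the right of the other risers, at 2940 with auxin and 594 without auxin, and the 8 lower rows are at the bottom.

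LINC02575 was the most abundant LINC row and changed with the smallest error. It lies on chromosome 21 from 44485577 to 44490288 (hg38, plus strand), with 2 exons in GENCODE 29. Its derived level was 2940 with auxin and 594 without auxin, or 3219 and 651 normalised counts per kilobase. This was a rise of 4.95-fold (log2 fold change 2.31, adjusted p 4.38e-238) by the authors' deposited table, with a derived standard error of 0.07. The nearest coding row, LRRC3, which encodes a leucine-rich repeat membrane protein, lies 23381 bases away and was at 0.728-fold by the authors' deposited table. In GENCODE 29 the nearest coding gene is TSPEAR, which faces LINC02575 end to end at 7604 bases and is not among the coding rows of the table.

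LINC00052 had the largest rise among rows with a mean level of at least 20. It lies on chromosome 15 from 87576929 to 87579866, and 879612 bases separate it from the nearest coding row of the table, MRPL46. In GENCODE 29 the nearest coding gene is NTRK3, 279885 bases away. The derived level of LINC00052 was 39.4 with auxin and 4.60 without auxin, a rise of 8.57-fold (adjusted p 1.62e-09) by the authors' deposited table. Its derived standard error of 0.49 on the log2 scale makes the size of that rise uncertain. It overlaps AC020687.1 on the other strand in GENCODE 29. LINC02837 and LINC01356, named after their values were seen, had folds of 11.2 and 11.1 by the authors' deposited table but mean levels of 4 and 3. Their derived standard errors were 1.25 and 1.24, so these folds are imprecise.

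LINC00324 lies on chromosome 17 from 8220642 to 8224043, on the minus strand, 772 bases downstream of CTC1, a subunit of the CST complex that protects telomeres, and on the same strand. Its derived level was 219 with auxin and 51.2 without auxin. The rise was 4.27-fold (log2 fold change 2.10, derived standard error 0.18, adjusted p 1.04e-31) by the authors' deposited table. CTC1 fell to 1130 with auxin, against 1628 without auxin, which is 0.694-fold (adjusted p 2.64e-12) by the authors' deposited table. The LINC RNA and the coding gene just before it on the same strand therefore moved in opposite directions.

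LINC00337 and LINC00957 were likewise higher beside a lower coding row. LINC00337, on chromosome 1 from 6236240 to 6238940, is divergent from ICMT, the enzyme that methylates prenylated proteins such as RAS, at a distance of 276 bases. Its derived level was 268 with auxin and 77.9 without auxin, 3.44-fold (adjusted p 1.13e-30) by the authors' deposited table. ICMT was at 0.795-fold (adjusted p 6.89e-08) by the authors' deposited table. LINC00957, on chromosome 7 from 44039523 to 44042306, had 155 with auxin and 40.9 without auxin. It was 3.79-fold higher, while DBNL, an actin-binding adaptor 2334 bases on, was at 0.777-fold (adjusted p 6.34e-21 and 4.84e-05) by the authors' deposited table. LINC00957 overlaps RASA4CP on the other strand in GENCODE 29.

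The divergent pair of LINC01136 and BTG2 rose together and by a similar factor. BTG2 is an antiproliferative gene that p53 and growth signals induce. The starts of the pair are 210 bases apart on chromosome 1, and both are inside the BTG2 window printed above. LINC01136 (203298758 to 203305309) had a derived level of 48.3 with auxin and 11.7 without auxin, and BTG2 had 3399 with auxin and 883 without auxin. The folds were 4.12 for LINC01136 (adjusted p 7.66e-07) and 3.85 for BTG2 (adjusted p 2.7e-162) by the authors' deposited table. On the log2 scale these are 2.04 with a derived standard error of 0.39 and 1.94.

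LINC01166 and LINC01168 are divergent from each other on chromosome 10, with starts 245 bases apart, and both rose. LINC01166 (132943967 to 132965289, minus strand) had 94.1 with auxin and 29.9 without auxin, and LINC01168 (132965534 to 132976354, plus strand) had 46.9 with auxin and 17.1 without auxin. These were rises of 3.15-fold and 2.74-fold (adjusted p 2.7e-08 and 2.9e-05) by the authors' deposited table. LINC01167, named after its value was seen, lies inside LINC01166 on the same strand and did not pass, at a log2 fold change of 0.37 (adjusted p 0.0501) by the authors' deposited table. Reads in the shared stretch could belong to either row. The nearest coding row of the table, INPP5A, an inositol phosphate phosphatase 160487 bases from LINC01166, was at 0.836-fold by the authors' deposited table. In the GENCODE annotation a coding gene lies much closer, CFAP46, which is not among the coding rows of the table. LINC01166 lies upstream of CFAP46 on the same strand at 1144 bases, and LINC01168 is divergent from it at 22711 bases.

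The other 4 of the 12 largest rises among rows with a mean level of at least 20 lay between 2.61-fold and 2.23-fold by the authors' deposited table. LINC02709 had 150 with auxin and 57.7 without auxin and faces SWAP70, a signalling protein that binds actin, end to end at 1777 bases. It overlaps SBF2-AS1 on the other strand in GENCODE 29. SWAP70 did not pass, at 0.926-fold (adjusted p 0.141) by the authors' deposited table. LINC02453 had 39.4 with auxin and 16.6 without auxin. Its nearest coding row, TMPO, a nuclear lamina protein, lies 11657 bases away and was at 0.803-fold by the authors' deposited table. LINC01770 had 31.9 with auxin and 14.1 without auxin, and its divergent neighbour VWA1, an extracellular matrix protein, was also higher at 1.31-fold (adjusted p 0.0110) by the authors' deposited table. LINC01569 had 106 with auxin and 47.7 without auxin, while TFAP4, a helix-loop-helix transcription factor 3407 bases away on the same strand, was at 0.543-fold (adjusted p 1.31e-24) by the authors' deposited table.

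Falls were fewer and mostly smaller, and 6 of the 8 lower rows had a mean level of at least 20. LINC02593, on chromosome 1 from 916870 to 919692, had the deepest of these, with 313 with auxin and 619 without auxin. It was at 0.505-fold (log2 fold change -0.99, derived standard error 0.10, adjusted p 5.83e-21) by the authors' deposited table. SAMD11, a SAM domain gene that is divergent from it at 6039 bases, was at 0.488-fold (adjusted p 3.99e-21) by the authors' deposited table, so both rows of this pair were close to 2-fold lower.

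LINC01184 fell while its divergent neighbour rose. LINC01184, on chromosome 5 from 127965888 to 128082974, had 393 with auxin and 497 without auxin. SLC12A2, the sodium-potassium-chloride cotransporter NKCC1, had 5897 with auxin and 1997 without auxin, with starts 817 bases apart. The folds were 0.791 for LINC01184 (adjusted p 0.00173) and 2.95 for SLC12A2 (adjusted p 3.24e-107) by the authors' deposited table. Among the 43 LINC rows within 5000 bases of a coding row this was the only one called lower.

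LINC01605, LINC01138, LINC00847 and LINC00963 were the other lower rows at that level, at 0.631, 0.611, 0.714 and 0.784-fold by the authors' deposited table. LINC01605 had 120 with auxin and 190 without auxin, LINC01138 had 36.4 with auxin and 59.6 without auxin, and LINC00847, which overlaps HEIH on the other strand, had 77.5 with auxin and 109 without auxin. LINC00963 is the longest of the 119, at 9557 bases, and had 503 with auxin and 641 without auxin. LINC01138 spans U1 copies and other noncoding genes on chromosome 1 in GENCODE 29, so its reads may include theirs. Of 18 LINC RNAs listed for having been described in cell lines, 2 were in the table under such a name, LINC00324 higher and LINC01138 lower.

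Among the 5 LINC rows with the highest mean level, LINC02575 rose, LINC00963 and LINC02593 fell, and LINC01578 and LINC00641 did not pass. LINC01578, also called CHASERR, lies upstream of CHD2, a chromatin remodeller that it is known to hold down. Its derived level was 542 with auxin and 594 without auxin, or 0.913-fold (adjusted p 0.228) by the authors' deposited table. CHD2, 2349 bases on and on the same strand, was 1.31-fold higher (adjusted p 6.9e-10) by the authors' deposited table. LINC01578 overlaps AC013394.1 on the same strand in GENCODE 29. LINC00641 had 453 with auxin and 459 without auxin.

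The chance of a call grew with level, as it did for coding rows. Below a mean level of 10, 3 of 34 LINC rows were called, all as higher, or 8.82%, beside 8.79% of protein-coding rows at that level. From 10 to 99 there were 23 higher and 4 lower of 64, or 42.2% called, beside 44.1% of protein-coding rows at that level. At 100 or more there were 8 higher and 4 lower of 21, or 57.1%, beside 62% of protein-coding rows. At matched level the share called among LINC rows was thus near that of coding rows. Rises made up 85.2% of the called LINC rows from 10 to 99 and 66.7% at 100 or more, where coding rows had 70.4% and 45.3%. Long noncoding RNAs with other names had 87.6% and 70.1% in these 2 bands, so the larger share of rises was not particular to LINC rows. The median log2 fold change of the LINC rows was 0.57, 0.34 and 0.05 from the lowest to the highest level. That of coding rows was 0.39, 0.24 and -0.04, and that of long noncoding RNAs with other names 0.59, 0.41 and 0.18. Rises of at least 2-fold numbered 3 of 34, 14 of 64 and 4 of 21 LINC rows at these levels, in the same order. Protein-coding rows had 16 of 182, 197 of 903 and 692 of 11739. Falls that large numbered 0, 2 and 0 LINC rows and 0, 35 and 149 protein-coding rows. The difference between LINC and coding rows was not tested.

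The 22 higher rows not taken by size, level or distance ranged from 1.42-fold to 11.2-fold by the authors' deposited table. Of these, 15 had a mean level of at least 20 and lay between 1.42-fold and 2.16-fold. The other 7, at mean levels of 3 to 16, lay between 2.36-fold and 11.2-fold. The larger rises at a mean level of at least 20 are those named above, so this split follows from how rows were named. The 77 rows that did not pass had a median mean level of 13 and ranged from 0.454-fold to 7.07-fold by the authors' deposited table. For the 9 of them at a mean level of 100 or more that range was 0.815-fold to 1.30-fold.

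**Figure D2:**
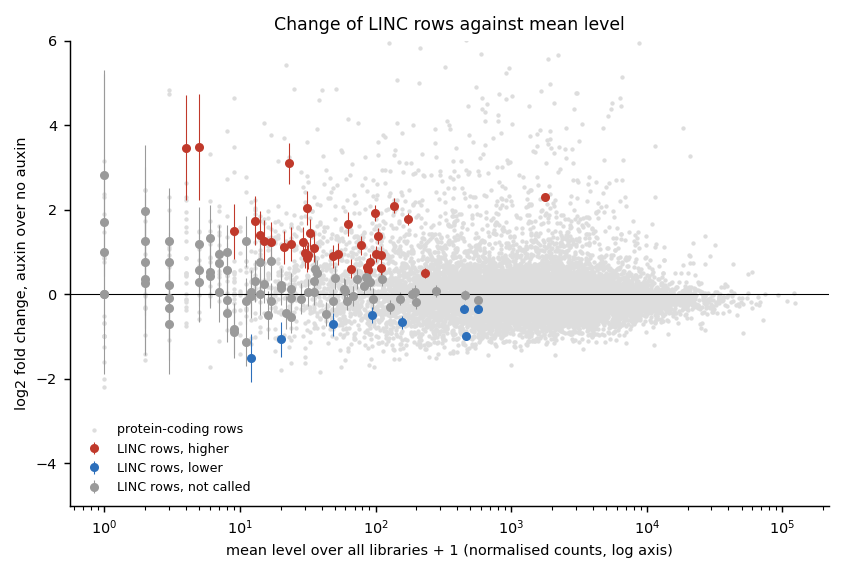
Log2 fold change (auxin over no auxin) against the mean level over all libraries plus 1 on a log axis, for the 119 LINC rows with their derived standard errors and for protein-coding rows in grey, of which 18 lie outside the axis. Called LINC rows are mostly above 0, and errors widen towards low levels.

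Transcript length alone ordered the changes little. The rank correlation of log2 fold change with length over the 119 rows was -0.04, and with mean level -0.14, given as descriptions over rows of the same libraries. Rows from 1000 up to 3000 bases had 21 higher and 5 lower of 53, and those from 500 up to 1000 bases had 10 higher and 0 lower of 39. The shares called higher were 39.6% and 25.6%, close to the 35.3% and 23.7% of long noncoding RNAs with other names in the same bands. Below 500 bases 2 of 16 were higher and 1 lower. The 11 rows of 3000 bases or more had 1 higher and 2 lower, and their median log2 fold change was -0.35, where the other 3 length bands had 0.22, 0.42 and 0.57 from shortest to longest. Long noncoding RNAs with other names of 3000 bases or more had 26 higher and 18 lower of 88, with a median of 0.21. With only rows at a mean level of 10 or more, the median of the longest LINC rows was -0.11 over 9 rows. The longest LINC rows included the highly measured LINC00963, and the band is too small to carry more than its counts.

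Rows with fewer exons had higher medians. In GENCODE 29 every LINC row had at least 2 exons and at most 14, counting the transcript with the most. The median log2 fold change was 0.62 for the 39 rows with 2 exons, 0.30 for the 37 with 3 and 0.07 for the 43 with 4 or more. Higher rows numbered 14, 12 and 8, and lower rows 1, 2 and 5, in the same order. The shares called were 38.5%, 37.8% and 30.2%, beside 33% of long noncoding RNAs with other names and 56.7% of all rows. Exons were counted only for LINC rows, so whether other long noncoding RNAs show the same step is not known here. The rank correlation with exon number was -0.26 over 119 rows. Median mean levels in these groups were 20, 16 and 48, and median lengths 835, 1500 and 1601 bases, so exon number moved with level and length, and their part in the difference was not tested.

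GENCODE 29 does not call all of these genes intergenic. It gives 96 as lincRNA, 13 as antisense and 10 as processed transcripts, and 9 of the 119 had another name there. The lincRNA type had 29 higher and 4 lower, the antisense type 4 higher and 0 lower, and the processed transcripts 1 higher and 4 lower. The shares called were 34.4%, 30.8% and 50%, beside 33% of long noncoding RNAs with other names. The groups of 13 and 10 rows are too small to carry more than their counts, and a difference between types was not tested. In that annotation 66 rows overlapped 0 other genes, and of these 20 were higher and 4 lower. Another gene overlapped 21 rows on the same strand, of which 5 were higher and 2 lower. The kit keeps strand, but the sources used here do not say whether counting used it.

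**Figure D3:**
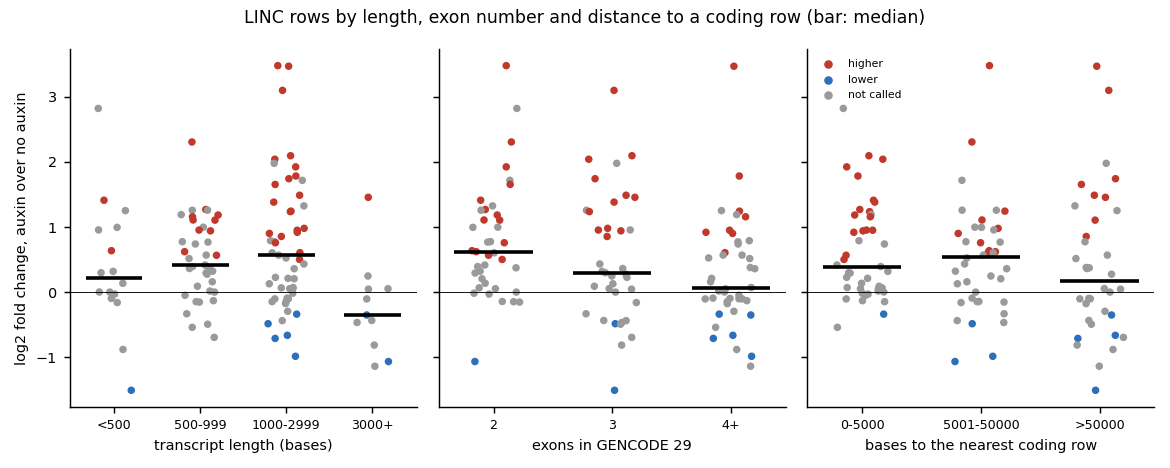
Log2 fold change (auxin over no auxin) of the 119 LINC rows by transcript length, by number of exons in GENCODE 29 and by distance to the nearest coding row, one point per row, with bars at the medians. The medians step down with exon number from 0.62 to 0.07, and the rows of 3000 bases or more have the lowest median at -0.35, which is -0.11 without those at a mean level under 10.

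LINC rows near a coding row were called mostly as higher, and the difference from those farther away was not tested. Of the 43 rows that overlap a coding row or lie within 5000 bases, 16 were higher and 1 lower, or 39.5%. Of the other 76, 18 were higher and 7 lower, or 32.9%. Median log2 fold changes were 0.39 and 0.37. Beyond 5000 and up to 50000 bases 10 of 40 were higher and 3 lower, and beyond 50000 bases 8 of 36 were higher and 4 lower. For long noncoding RNAs with other names within 5000 bases, 282 of 1018 were higher and 57 lower, and their median was 0.41.

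Divergent pairs were the commonest layout near coding rows, with 24 of 43. They had 8 higher and 1 lower LINC row and a median log2 fold change of 0.36, where the coding neighbours had a median of -0.05. The share called was 37.5%, beside 38.4% of the 437 long noncoding RNAs with other names that are divergent within 5000 bases. The 8 LINC rows downstream of a coding row on its strand had 2 higher and 0 lower, and the 5 upstream on the same strand 2 and 0. Both of the 2 convergent rows were higher, LINC02709 and LINC01431, the second named after its value was seen. Besides these, 4 rows overlapped a coding row. LINC01619, which overlaps BTG1 on the same strand and was named after its value was seen, had 40.6 with auxin and 21.4 without auxin. It stood at 1.89-fold and BTG1, an antiproliferative relative of BTG2, at 2.23-fold by the authors' deposited table, and reads of BTG1 may be counted for it.

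Near coding rows, changes in the same and in opposite directions to the neighbour both occurred. Over the 43 pairs the rank correlation of the log2 fold changes was -0.13, a description over pairs that share their libraries. Of the 43 neighbours 12 were higher and 15 lower, with a median of -0.08. In 12 pairs both rows were called, 4 in the same direction and 8 in opposite directions. The same direction was up in all 4, LINC01136 with BTG2, LINC01619 with BTG1, LINC00637 with PPP1R13B and LINC01770 with VWA1. In 7 of the 8 opposite pairs the LINC row was higher and the coding row lower, and the other was LINC01184 with SLC12A2. Long noncoding RNAs with other names within 5000 bases had 218 pairs with both called, 97 in the same direction and 121 in opposite directions. LINC00637 with PPP1R13B, named after their values were seen, are divergent at 146 bases and stood at 2.36 and 1.82-fold by the authors' deposited table. PPP1R13B, a protein that binds p53 and favours cell death, had 3022 with auxin and 1656 without auxin, and LINC00637 had 22.5 with auxin and 9.54 without auxin.

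The 7 pairs with a higher LINC row and a lower coding row were not of a single layout. LINC00324 with CTC1 and LINC01569 with TFAP4 lie downstream of the coding row on its strand, and LINC00957 with DBNL and LINC02019 with DOCK3 lie upstream of it on its strand. LINC00337 with ICMT and LINC01424 with UBE2G2 are divergent, and LINC01431 with NXT1 is convergent. LINC02019, LINC01431 and LINC01424 were named after their values were seen. LINC01424 had 268 with auxin and 190 without auxin, 757 bases from UBE2G2, a ubiquitin-conjugating enzyme of protein quality control at the endoplasmic reticulum. The folds were 1.42 and 0.656 for this pair (adjusted p 2.16e-04 and 4.95e-22) by the authors' deposited table. LINC02019 had 19.8 with auxin and 8.21 without auxin, and DOCK3, a neuronal activator of RAC, had 1279 with auxin and 2241 without auxin. LINC01431 had 68.6 with auxin and 35.4 without auxin, and NXT1, a cofactor of mRNA export, had 838 with auxin and 1156 without auxin. In 5 further pairs the LINC row was higher and the coding row did not pass, with LINC folds from 2.66 to 1.48 and coding folds from 0.926 to 0.984 by the authors' deposited table. LINC02166, one of these, lies 120 bases from CDK10, had 142 with auxin and 74.0 without auxin, and was named after its value was seen.

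**Figure D4:**
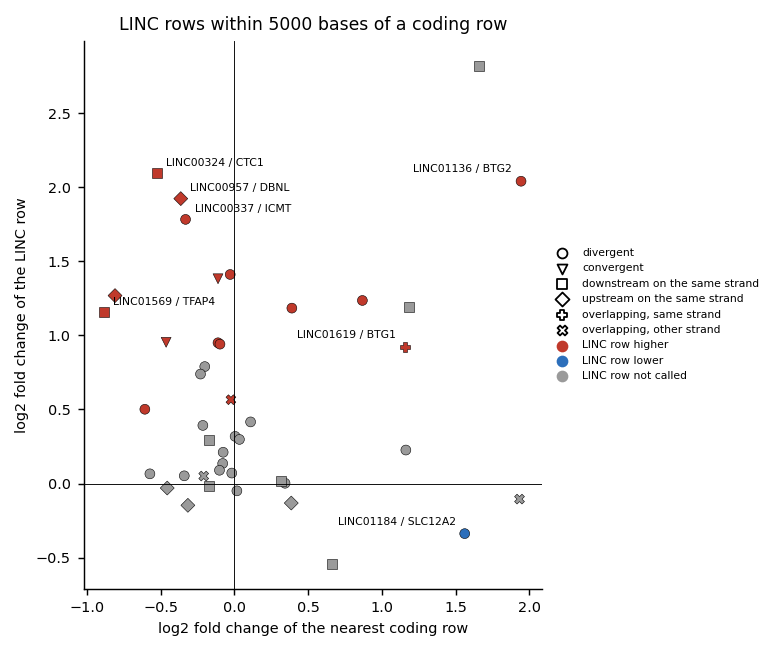
Log2 fold change (auxin over no auxin) of the 43 LINC rows within 5000 bases of a coding row against that of the coding row, with marker shape for the layout and colour for the call of the LINC row. LINC01136 with BTG2 lies at the upper right, LINC01184 with SLC12A2 at the lower right, and 7 called LINC rows lie above 0 beside a lower coding row.

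RefSeq promoters were found for 78 of the 119 LINC rows, and 53 of these starts lie within 50 bases of the start in the authors' table. The motif TGANTCA of AP-1, searched on both strands, was in 2 of 24 promoters of higher rows, 1 of 6 of lower rows and 3 of 48 of the rest. That is 7.69% of LINC promoters, beside 7.71% of all 35116 promoters of the same length. TGACGTCA, the CRE motif, was in 1 of the 78 and in 1.85% of all promoters. TATAAA was in 4 of the 78, or 5.13%, and in 11.5% of all promoters. These 4 RefSeq starts lie 160 (LINC01619), 301 (LINC00910), 848 (LINC01896) and 16640 bases (LINC02435) from the start in the authors' table. That of the CRE match, LINC00111, lies 121 bases away. The shares thus include windows that may not be promoters of the measured transcripts. A match of one of these motifs is never a match of another, and 0 of the 5 windows printed above hold any of them. The absence of these letters from a window says nothing on whether a factor acts there.

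Of 15 abundant long noncoding RNAs with other names that were listed for comparison, 8 were in the table, with 3 higher, 3 lower and 2 not called. Their mean levels were 129 to 41791, and 56.6% of long noncoding RNAs with other names at 100 or more were called. The largest rise among them was that of SNHG12, a host gene of small nucleolar RNAs, with 1788 with auxin and 896 without auxin. The largest fall was that of OIP5-AS1, which binds the protein HuR, with 2149 with auxin and 3825 without auxin. The other called members, DANCR, MALAT1, GAS5 and SNHG15, stood at 1.56, 1.15, 0.878 and 0.838-fold by the authors' deposited table. Abundant noncoding RNAs outside the LINC names thus had calls in both directions.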

How the data were processed

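Total RNA of 6 libraries, 3 with and 3 without auxin, was depleted of ribosomal RNA and made into directional libraries, per the labels' protocols. STAR 2.7.3a, DESeq2 and the builds hg38 and dm6 are named in the submitters' processing notes, with no role given for either build. The counter, annotation, use of strand in counting and model formula are not given in the sources used here. The deposited table is the authors' comparison. Per the file headers it holds a mean level, treated as a score because the authors' normalised mean is rounded to whole numbers, the fold change as a linear ratio, its log2, and raw and adjusted p-values. It holds 0 columns of single libraries, so depth is unknown, no interval from counts is given and in place of the planned fits per library, calls use the authors' deposited adjusted p and a threshold of 0.05.

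A further deposited log2 column names no group. For the 12195 rows with a mean level of at least 100 it equalled log2 of the derived numerator level per kilobase within 0.0165, and it was used as the level per kilobase with auxin. The level of each group follows from mean level and fold, given equal groups. Dividing each log2 fold change by the normal quantile that its p-value corresponds to gave the derived standard error, which assumes a Wald test. Benjamini-Hochberg adjustment of the 14479 raw p-values below 1 differed from the deposited adjusted values by at most a relative 0.00777.

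The nearest coding row was found by Chr, Start, Stop and Strand of the table, in hg38. GENCODE 29 gave types, exons and overlaps, and identifiers of all 119 LINC rows were found there. The 5 printed sequences and motif shares came from RefSeq promoters. The calling step was run on log2 fold changes simulated with the derived standard errors, and the neighbour layouts on made-up coordinates. This checks only the calculation, and it does not test the authors' deposited p-values on which the calls rest. Named rows were the 12 largest rises and 8 largest falls (6 existed) among called rows at a mean level of 20 or more, which 65 rows reached, the 5 highest mean levels, the 6 largest such changes within 5000 bases of a coding row, and listed LINC RNAs. The members and lists were chosen with earlier results of these data known. Python 3.11.15, numpy 2.4.6, pandas 2.3.3, scipy 1.17.1 and matplotlib 3.10.9 were used.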

Additional observations from a re-analysis of the deposited data

How the results depend on the processing

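No paired analysis was possible because the table holds only the authors' comparison and no values per library. For the same reason leaving out each replicate and the fits by another tool were not run. The counts of 34 higher and 8 lower LINC rows became 23 and 4 at an adjusted p of 0.01, and those of at least 2-fold became 14 and 0. At a mean level of at least 100, where only 21 LINC rows are left, they were 8 higher and 4 lower, with 4 and 0 of at least 2-fold and a median log2 fold change of 0.050. Leaving out rows that overlap a GENCODE 29 gene on the same strand, an alternative chosen after seeing the data, left 29 higher and 6 lower, with 20 and 1 of at least 2-fold. Subtracting the median log2 fold change of rows with a mean level of at least 100 (-0.03) from every row gave 35 higher and 8 lower and kept all 42 calls, and of the 20 named rows it turned only LINC00641, which was not called, from -0.02 to 0.013. A mean level of at least 10, all lncRNA names that start with LINC and leaving out overlaps with coding rows moved no count by over 1.5 times. Taking neighbours from GENCODE 29 gave 21 higher of 57 rows within 5000 bases, beside 16 of 43, and brought the lower LINC02593 within that distance. At an adjusted p of 0.01, 2 of the 20 named rows, LINC01138 and LINC00847, no longer passed. Low levels limit the result: the median derived standard error of the LINC rows was 0.36 on the log2 scale.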

Other observations

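Another 10 rows of the table have names that begin with LINC but fall outside the rule, 9 because of their gene type and LINC-PINT because its name has no number. Among them 1 was higher and 1 lower, and the median log2 fold change was -0.30. That is 20% called, beside 33% of long noncoding RNAs with other names and 56.7% of all rows. Most of the 10 are annotated as transcribed pseudogenes, so they differ in type from the LINC rows above. LINC00888, annotated as a transcribed pseudogene, had a derived level of 362 with auxin and 258 without auxin, or 1.40-fold (adjusted p 8.87e-05) by the authors' deposited table. LINC02210, also a transcribed pseudogene, had 285 with auxin and 413 without auxin, or 0.691-fold (adjusted p 6.95e-04) by the authors' deposited table. LINC-PINT, a noncoding RNA that p53 induces, had 198 with auxin and 206 without auxin and missed the threshold (adjusted p 0.749) by the authors' deposited table.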
